A study of Mus musculus with 9 samples.

Results

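The genes examined were 10 genes that hepatocytes around the central vein are known to use, namely the Wnt target genes of this zone and the genes of glutamine synthesis and its neighbouring steps. They were chosen by gene symbol (Glul, Oat, Slc1a2, Rhbg, Axin2, Lgr5, Tbx3, Rnf43, Znrf3 and Gulo), and all 10 were found among the 54532 genes measured. Whole livers of male C57BL/6 mice aged 5 to 7 weeks were sequenced in 3 groups of 3 animals. Mice of the NC group are labelled as controls, without treatment by acetaminophen (APAP). Mice of the APAP group were fasted overnight, received 500 mg/kg APAP intraperitoneally and were killed 6 h later. In the AMSC group the same fast and dose were followed directly by adipose-derived mesenchymal stem cells (AMSCs) injected into the tail vein. These cells were grown from inguinal fat of C57BL/6 mice. Mice of the AMSC group were also killed 6 h after APAP. No group carried a transgene or deletion. The study's methods give the fast before APAP for all its animals and do not name the NC group apart. The comparison of APAP with NC asks what the overdose did, and that of AMSC with APAP what the cell therapy changed.

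The liver lobule is divided into zones along the flow of blood from the portal tract to the central vein. Endothelial cells of the central vein secrete Wnt ligands, which stabilise β-catenin in the surrounding hepatocytes. In these pericentral hepatocytes β-catenin acts with TCF factors to switch on genes such as Glul, and ammonia that escaped the urea cycle of periportal cells is fixed there into glutamine. The same cells hold most of the Cyp2e1 that converts APAP into its reactive metabolite, and the necrosis of an overdose begins around the central vein.

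Among the 10 genes, Glul and Slc1a2 had the most alike pattern over the 9 livers once each was centred and scaled. The values are given further on, and the promoters of this pair are shown first. A promoter is here the 250 bases before and the 50 bases after a RefSeq transcription start on GRCm38.p6, read 5′ to 3′ on the strand of the gene. Capitals mark the only match to the TCF-type words searched, which were CTTTGAT, its variant CTTTGTT, the variant CTTTGAA and the variant CTTTGTA, on both strands. The Glul window is chr1:153899679-153899978 on the plus strand and the Slc1a2 window is chr2:102706188-102706487 on the plus strand, the latter inside the longer gene model of the deposited table.
Glul: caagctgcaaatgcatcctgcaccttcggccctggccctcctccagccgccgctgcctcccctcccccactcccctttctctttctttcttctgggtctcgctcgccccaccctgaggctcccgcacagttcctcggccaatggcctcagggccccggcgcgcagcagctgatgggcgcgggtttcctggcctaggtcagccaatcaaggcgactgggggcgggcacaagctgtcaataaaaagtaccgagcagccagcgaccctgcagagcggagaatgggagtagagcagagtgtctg
Slc1a2: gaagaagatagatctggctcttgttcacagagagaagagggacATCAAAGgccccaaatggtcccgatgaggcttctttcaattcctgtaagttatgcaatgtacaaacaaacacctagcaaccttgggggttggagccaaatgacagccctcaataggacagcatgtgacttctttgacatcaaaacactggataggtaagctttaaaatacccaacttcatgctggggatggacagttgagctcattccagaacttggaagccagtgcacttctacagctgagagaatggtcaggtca
The match in Slc1a2, ATCAAAG, is CTTTGAT on the minus strand and began at position -207 from the start. RefSeq promoters were at hand for 5 of the 10 genes, 6 windows in all (Glul, Slc1a2, Oat, Axin2 and a pair for Rnf43), and only that of Slc1a2 held any of the 4 words. Among 32851 mouse promoters of the same length, 16.9% held at least 1 of the 4 words and 3.73% held CTTTGAT, so a match in 1 of 6 windows is close to the general share. Rhbg, Lgr5, Tbx3, Znrf3 and Gulo had no entry.

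Levels are FPKM, fragments scaled to gene length in kilobases and to a factor per library that the authors set. That factor was 1.08 to 1.16 times the library's reads on genes in the NC group, 0.909 to 0.949 times in the APAP group and 0.969 to 0.985 times in the AMSC group, so NC values are lower, relative to the other groups, than with totals as the divisor. The libraries held 13418921 to 16210930 reads on genes. A fold change was tested with limma on log2(FPKM + 1) over the 9699 genes that averaged 1 FPKM or more. A gene was called a DEG when its adjusted p was 0.05 or less and its log2 fold change was 1 or more, up or down. This scale understates the change of genes near 1 FPKM, so limma's voom was also run on the reads recovered from the FPKM, over 12697 genes. Of the 10 genes, 7 passed the filter for the main test, while Rhbg, Axin2 and Lgr5 had a mean under 1 FPKM and were tested only by voom. In addition, Slc1a2 and Tbx3 passed with an APAP mean under 1 FPKM. The hepatocyte markers on a list of 11 summed to 43355 to 46852 FPKM in the NC group, 61819 to 72023 in the APAP group and 57323 to 59241 in the AMSC group, and none was at 0 in any group. Thus the defining genes of hepatocytes were abundant in every group.

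Compared with NC, the APAP group had lower mean levels of 9 of the 10 genes, and the AMSC group had mean levels above the APAP group for 10 of 10. The second count includes Rnf43 and Znrf3, whose AMSC and APAP libraries overlapped. The shares of all genes with such an order of means were not computed. After APAP, 5 of the 7 genes tested were DEGs with lower levels (Glul, Oat, Slc1a2, Tbx3 and Gulo), against a background of 2.8% of all genes tested that were lower and 5.09% that were higher. By voom, 9 of 10 were lower, where the background was 6.05%. In 9 of 10 the APAP and NC libraries did not overlap, against 19.4% of the 15542 genes that averaged 0.1 FPKM or more. In the AMSC group, 3 of 7 were DEGs with higher levels than in the APAP group (Glul, Oat and Slc1a2), where 0.742% of all genes were higher and 1.22% lower. Voom called 6 of 10 higher, against 1.13% of genes, and 8 of 10 did not overlap, against 12.1%. Compared with NC, 1 of 7 remained a DEG with a lower level in the AMSC group (Slc1a2), where 2.09% of genes were lower and 3.92% higher. Voom called 3 of 10 lower, against 4.99%, and 7 of 10 did not overlap, against 17.9%. The 3 comparisons share their libraries pairwise, so they are not independent of each other. In whole liver, fewer pericentral cells and less of an RNA per cell cannot be told apart.

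**Figure D1:**
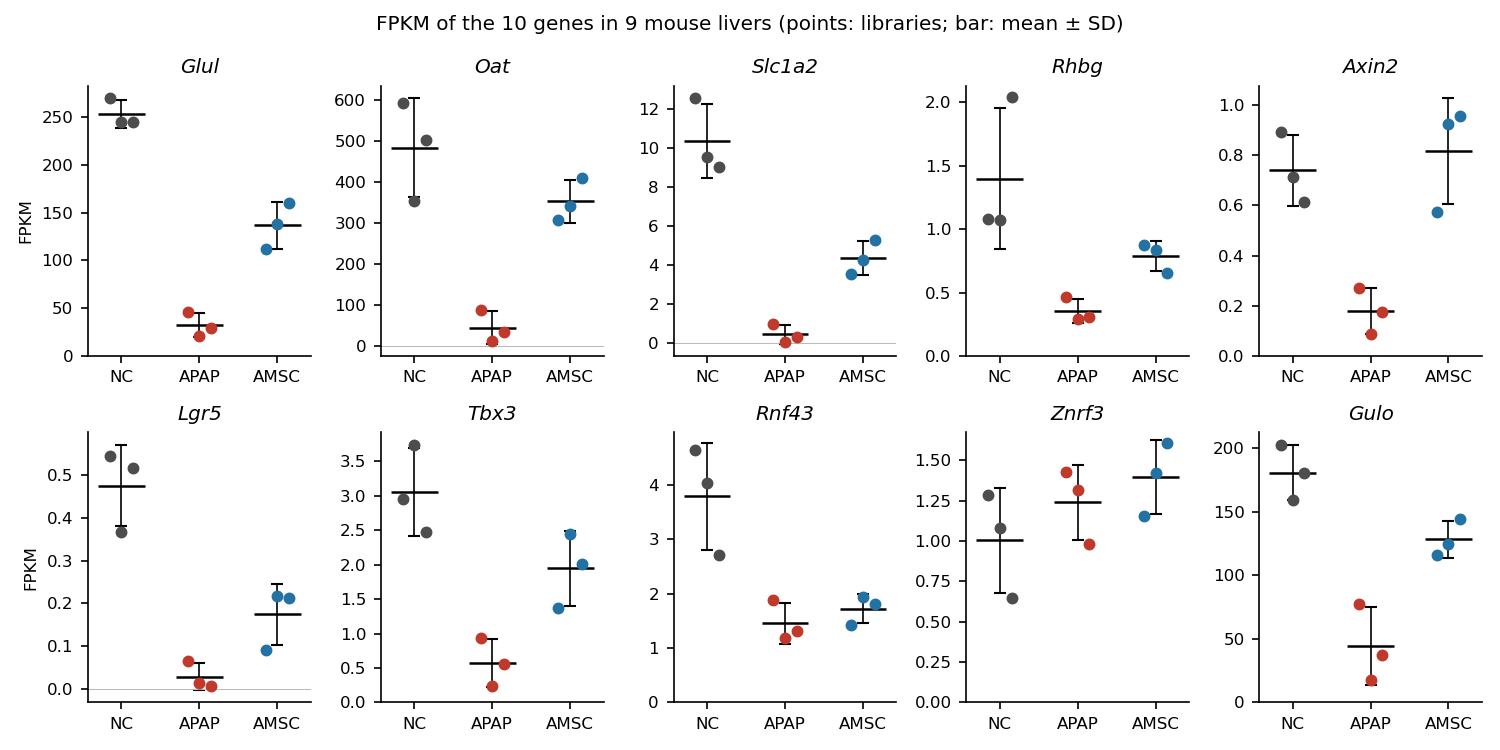
FPKM (y axis, a scale of its own for each gene) of the 10 genes in the NC, APAP and AMSC groups, with 1 point per library and bars for the mean ± SD of 3 libraries. For Glul the NC libraries sit between 245 and 270 FPKM, the APAP libraries between 20.7 and 45.5 and the AMSC libraries between 112 and 160, and for Znrf3 the 3 groups overlap.

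Glul encodes glutamine synthetase, the enzyme that joins ammonia to glutamate. Its level was 270, 245 and 245 FPKM in NC replicates 1, 2 and 3, 45.5, 20.7 and 29.4 FPKM in APAP replicates 1, 2 and 3, and 112, 138 and 160 FPKM in AMSC replicates 2, 3 and 4. The 3 groups did not overlap, with APAP lowest and AMSC in between. The mean fell from 253 ± 14.6 FPKM (SD, n = 3) in NC to 31.9 ± 12.6 in APAP, 12.6% of NC, and was 137 ± 24.4 in AMSC, 53.9% of NC. The log2 fold change of APAP against NC was -3.02 ± 0.26 (SE, limma adjusted p = 0.000296), an 8.11-fold decrease. Against APAP, the AMSC group was higher by 2.12 ± 0.27 (limma adjusted p = 0.00998), which is 4.34-fold. AMSC against NC was -0.90 ± 0.15 (limma adjusted p = 0.00338), below the fold threshold. It passed that threshold without AMSC replicate 4 at -1.02. Glul lies on the plus strand at chr1:153899944-153909723 (GRCm38), and its processed pseudogene Glns-ps1 reached at most 0.595 FPKM in any library.

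Oat encodes ornithine aminotransferase, a mitochondrial enzyme that turns ornithine into glutamate semialdehyde and so links ornithine to glutamate. Its level was 594, 355 and 504 FPKM in the NC group, 89.7, 14.0 and 33.7 FPKM in the APAP group and 308, 342 and 410 FPKM in the AMSC group, in the same order of replicates. APAP libraries lay below all others, while the NC and AMSC libraries overlapped. Thus the mean went from 484 ± 120 FPKM (SD, n = 3) in NC to 45.8 ± 39.3 in APAP, 9.46% of NC, and to 353 ± 52.1 in AMSC, 73.0% of NC. The decrease with APAP was -3.71 ± 0.57 in log2 (SE, limma adjusted p = 0.0037), 13.1-fold, and the increase of AMSC over APAP was 3.28 ± 0.56 (limma adjusted p = 0.0262), 9.73-fold. Without APAP replicate 1 these were -4.38 and 3.95, and without APAP replicate 2 they were -3.08 and 2.65. The call for AMSC against APAP was lost without APAP replicate 3 (limma adjusted p = 0.0824) and without AMSC replicate 2, 3 or 4 (0.0754, 0.0957 and 0.101). AMSC against NC did not pass the test, at -0.43 ± 0.20 (limma adjusted p = 0.155, 95% interval -0.89 to 0.03). Oat lies on the minus strand at chr7:132557478-132576398 and overlaps a gene model of Fgfr2 on the same strand, which had 1.4 to 4.42 FPKM.

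Slc1a2 encodes a high-affinity glutamate transporter, which supplies glutamine synthetase with its substrate in pericentral cells. It was at 12.6, 9.57 and 9.04 FPKM in the NC group, 0.971, 0.0614 and 0.283 FPKM in the APAP group and 3.53, 4.25 and 5.27 FPKM in the AMSC group. The APAP values rested on 171, 10 and 50 reads, and the 3 groups did not overlap. The mean level of APAP was 4.22% of NC, the lowest share among the 10 genes, and that of AMSC was 41.9%. APAP against NC was -3.02 ± 0.24 on log2(FPKM + 1) (SE, limma adjusted p = 0.000212). On the scale of reads, voom gave -5.26 ± 0.63 (adjusted p = 0.000701), a 38.2-fold decrease, which moved to -6.21 without APAP replicate 1 and -4.28 without APAP replicate 2. AMSC exceeded APAP by 1.93 ± 0.24 (limma adjusted p = 0.00812), or by 4.0 ± 0.62 with voom (adjusted p = 0.00874; 4.95 and 3.02 without the same libraries). Slc1a2 was the only one of the 7 that was a DEG between AMSC and NC, at -1.09 ± 0.16 (limma adjusted p = 0.00237). Leaving out NC replicate 1 or AMSC replicate 2 moved it to -0.96 or -0.98, under the fold threshold. The gene model spans chr2:102658659-102790784 on the plus strand.

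Rhbg encodes an ammonium transporter of the plasma membrane. It had few reads, 35, 36 and 68 in the NC group (1.08, 1.07 and 2.04 FPKM), 12, 7 and 8 in the APAP group (0.462, 0.292 and 0.307 FPKM) and 27, 21 and 19 in the AMSC group (0.878, 0.834 and 0.653 FPKM). NC replicate 3 stood well above the other NC libraries, and the 3 groups did not overlap. The APAP mean was 25.3% of NC, which voom put at -1.88 ± 0.46 in log2 (SE, adjusted p = 0.0172). This call was lost without APAP replicate 2 or 3 (voom adjusted p = 0.0561 and 0.0612). AMSC had 56.3% of the NC mean. Neither its difference from APAP (1.12 ± 0.41, voom adjusted p = 0.153) nor that from NC (-0.76 ± 0.36, voom adjusted p = 0.152) passed the test. Rhbg lies on the minus strand at chr3:88242874-88254709.

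Axin2 is the scaffold of the β-catenin destruction complex and a general feedback target of Wnt signalling. Its reads were 82, 68 and 58 in the NC group (0.893, 0.714 and 0.612 FPKM), 20, 6 and 13 in the APAP group (0.271, 0.0879 and 0.176 FPKM) and 50, 66 and 79 in the AMSC group (0.572, 0.922 and 0.955 FPKM). The APAP libraries were the lowest, and AMSC libraries overlapped with those of NC. APAP had 24.1% of the NC mean and AMSC had 110%. Voom gave -2.11 ± 0.42 for APAP against NC (SE, adjusted p = 0.00705) and 2.22 ± 0.45 for AMSC against APAP (adjusted p = 0.0268). The second call was lost without APAP replicate 2 or 3 or AMSC replicate 3 or 4, with voom adjusted p of 0.0523, 0.0839, 0.0856 and 0.0899. AMSC against NC was 0.11 ± 0.27 (voom adjusted p = 0.80, 95% interval -0.48 to 0.71), and the sign changed to -0.08 when reads were scaled to library totals. Axin2 lies on the plus strand at chr11:108920349-108950783.

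Lgr5 is a receptor for R-spondins, which amplify the Wnt signal, and marks pericentral hepatocytes in the liver. Only 9, 2 and 1 reads fell on it in the APAP group, compared with 93, 65 and 91 in the NC group and 15, 29 and 33 in the AMSC group. In FPKM this was 0.543, 0.366 and 0.515 for NC, 0.0654, 0.0157 and 0.00725 for APAP and 0.0920, 0.217 and 0.214 for AMSC, without overlap between any groups. The APAP mean was 6.20% of NC and the AMSC mean 36.7%, the lowest share of the 10 genes in the AMSC group. By voom the decrease with APAP was -4.26 ± 0.65 (SE, adjusted p = 0.00208), or -5.02 without APAP replicate 1 and -3.65 without APAP replicate 3. AMSC against APAP was 2.73 ± 0.75 and did not pass (voom adjusted p = 0.0706), whereas AMSC against NC was lower by -1.53 ± 0.36 (voom adjusted p = 0.0108). Lgr5 lies on the minus strand at chr10:115450311-115587780.

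Tbx3 encodes a T-box transcription factor of the β-catenin programme. Its level was 2.95, 3.74 and 2.48 FPKM in the NC group, 0.934, 0.231 and 0.562 FPKM in the APAP group and 1.38, 2.45 and 2.01 FPKM in the AMSC group. All AMSC libraries lay above those of APAP and below those of NC. The APAP mean was 18.8% of NC, with -1.38 ± 0.20 on log2(FPKM + 1) (SE, limma adjusted p = 0.00282) and -2.57 ± 0.40 by voom (adjusted p = 0.00235). For AMSC, at 63.6% of NC, the difference from APAP was 0.91 ± 0.21 and missed the threshold (limma adjusted p = 0.0552). It passed by voom (1.88 ± 0.42, adjusted p = 0.0365), and without APAP replicate 1 also in the main test (1.07, limma adjusted p = 0.0367). The voom call was in turn lost without APAP replicate 2 or 3 or AMSC replicate 3 or 4 (adjusted p = 0.0537, 0.0952, 0.118 and 0.115). AMSC against NC was -0.47 ± 0.17 (limma adjusted p = 0.0831). Tbx3 lies on the plus strand at chr5:119670669-119684724, and Tbx3os1 overlaps it on the other strand with 0.532 to 0.927 FPKM in NC, 0.102 to 0.235 in APAP and 0.504 to 1.19 in AMSC. Whether reads were counted by strand is not given in the sources used here, so reads of the pair cannot be told apart.

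Rnf43 and Znrf3 encode a pair of related membrane ubiquitin ligases that remove Wnt receptors from the cell surface and so restrain the signal. Rnf43 was at 4.63, 4.03 and 2.70 FPKM in the NC group, 1.89, 1.18 and 1.30 FPKM in the APAP group and 1.43, 1.94 and 1.81 FPKM in the AMSC group. It is the gene for which APAP and AMSC both lay below every NC library and overlapped with each other. APAP had 38.5% and AMSC 45.5% of the NC mean. APAP against NC was -0.95 ± 0.19 (SE, limma adjusted p = 0.00991), just under the fold threshold, and it was called by voom at -1.36 ± 0.26 (adjusted p = 0.00623). The main test also called it without NC replicate 3 (-1.13, limma adjusted p = 0.00754) or without APAP replicate 1 (-1.07, limma adjusted p = 0.00863). AMSC against APAP was 0.15 ± 0.15 (limma adjusted p = 0.626, 95% interval -0.20 to 0.50). AMSC against NC was -0.80 ± 0.17 (limma adjusted p = 0.0111), or -1.12 ± 0.22 by voom (adjusted p = 0.0051), which fell to -0.95 without NC replicate 1 and -0.98 without AMSC replicate 2. Rnf43 lies on the plus strand at chr11:87662722-87735539, where 1110028F11Rik overlaps it on the same strand with at most 1.17 FPKM.

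Znrf3 did not pass the test in any comparison. Its level was 1.28, 1.08 and 0.648 FPKM in the NC group, 1.43, 1.32 and 0.980 FPKM in the APAP group and 1.16, 1.42 and 1.61 FPKM in the AMSC group. The groups overlapped throughout, and the means of APAP and AMSC were 124% and 139% of NC. APAP against NC was 0.17 ± 0.16 (SE, limma adjusted p = 0.486, 95% interval -0.21 to 0.55), AMSC against APAP 0.10 ± 0.14 (limma adjusted p = 0.747) and AMSC against NC 0.27 ± 0.15 (limma adjusted p = 0.234). The ratio of Rnf43 to Znrf3 within a library does not depend on the scaling of that library. It was 3.61, 3.72 and 4.17 in the NC group, 1.32, 0.896 and 1.33 in the APAP group and 1.24, 1.36 and 1.12 in the AMSC group. Both treated groups lay below every NC library. A two-sided exact permutation test of 3 against 3 libraries gave p = 0.1 for each against NC, the smallest value this design allows, and p = 0.8 for AMSC against APAP. Znrf3 lies on the minus strand at chr11:5276324-5444847.

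Gulo encodes gulonolactone oxidase, which carries out the last step of ascorbate synthesis in mice. Its level was 203, 159 and 181 FPKM in the NC group, 77.6, 17.3 and 37.4 FPKM in the APAP group and 116, 124 and 145 FPKM in the AMSC group. Again the 3 groups did not overlap and AMSC lay in between. The APAP mean was 24.4% of NC and the AMSC mean 71.0%. APAP against NC was -2.25 ± 0.46 (SE, limma adjusted p = 0.0108), a 4.76-fold decrease. AMSC against APAP was 1.76 ± 0.45, a 3.39-fold difference that did not pass (limma adjusted p = 0.0813). It passed by voom (1.79 ± 0.42, adjusted p = 0.0408) and without APAP replicate 1 (2.28, limma adjusted p = 0.0117). The voom call was lost without APAP replicate 3 or AMSC replicate 2, 3 or 4 (adjusted p = 0.0988, 0.0961, 0.127 and 0.142). AMSC against NC was -0.49 ± 0.13 (limma adjusted p = 0.0298), under the fold threshold. Gulo lies on the minus strand at chr14:65986786-66009207.

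**Figure D2:**
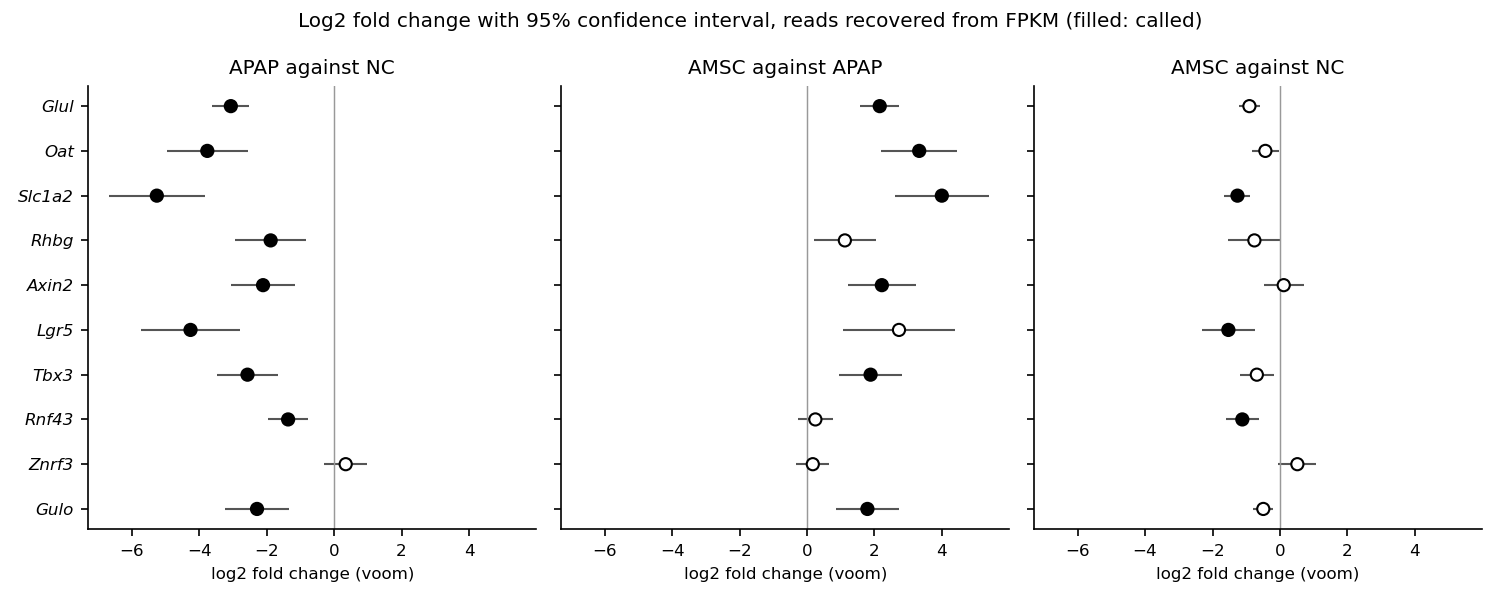
Log2 fold change by voom (x axis) of each of the 10 genes with its 95% confidence interval, for APAP against NC, AMSC against APAP and AMSC against NC, with filled circles for calls. Of 10 genes, 9 are called lower with APAP, 6 higher with AMSC than with APAP and 3 (Slc1a2, Lgr5 and Rnf43) lower with AMSC than in NC.

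The order of the levels can be read in FPKM, which is per gene length. In the NC group it was Oat, Glul, Gulo, Slc1a2, Rnf43, Tbx3, Rhbg, Znrf3, Axin2 and Lgr5 by mean, from 484 to 0.475 FPKM. Neighbours whose libraries overlapped were Rnf43 (2.70 to 4.63 FPKM) with Tbx3 (2.48 to 3.74), Rhbg (1.07 to 2.04) with Znrf3 (0.648 to 1.28), and Znrf3 with Axin2 (0.612 to 0.893). In the APAP group the glutamate transporter Slc1a2 (mean 0.438 FPKM) was below Znrf3 (mean 1.24 FPKM), which it exceeded in NC.

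Within a group, most of the 10 genes, but not all, had their highest or lowest level in the same library. Rhbg differed in AMSC, where it had 0.878, 0.834 and 0.653 FPKM in replicates 2, 3 and 4. The shares of all genes with such ranks were not computed. APAP replicate 1 had the highest level of its group for 10 of 10 genes and APAP replicate 2 the lowest for 8. Over the 10 genes, the median level relative to the NC mean was 31.8% in APAP replicate 1, 8.85% in APAP replicate 2 and 19.5% in APAP replicate 3, compared with 53.9%, 64.2% and 64.5% in AMSC replicates 2, 3 and 4. Of the APAP libraries, replicate 1 also had the highest sums of neutrophil (34.5 FPKM), endothelial (81.5) and stromal markers (104) and the lowest hepatocyte sum (61819). Its cholangiocyte sum (60.5) was the lowest, however, and its macrophage sum (166) was below that of APAP replicate 3 (201). APAP replicate 2 had the lowest neutrophil (7.58), endothelial (33.3), macrophage (81.9) and stromal sums (47.7), but the highest cholangiocyte sum (100). Their part in the spread of the 10 genes was not tested. AMSC replicate 2 was the lowest of its group for 9 of 10 genes. NC replicate 1 was the highest NC library for 8 of 10, and NC replicate 3, whose title bears another date, was the lowest for 6. Without NC replicate 3 the same 5 genes were DEGs with APAP, at -3.04 for Glul, -3.67 for Oat, -3.11 for Slc1a2, -1.48 for Tbx3 and -2.25 for Gulo, and Rnf43 joined them. The genes are not replicates, since they share these libraries.

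**Figure D3:**
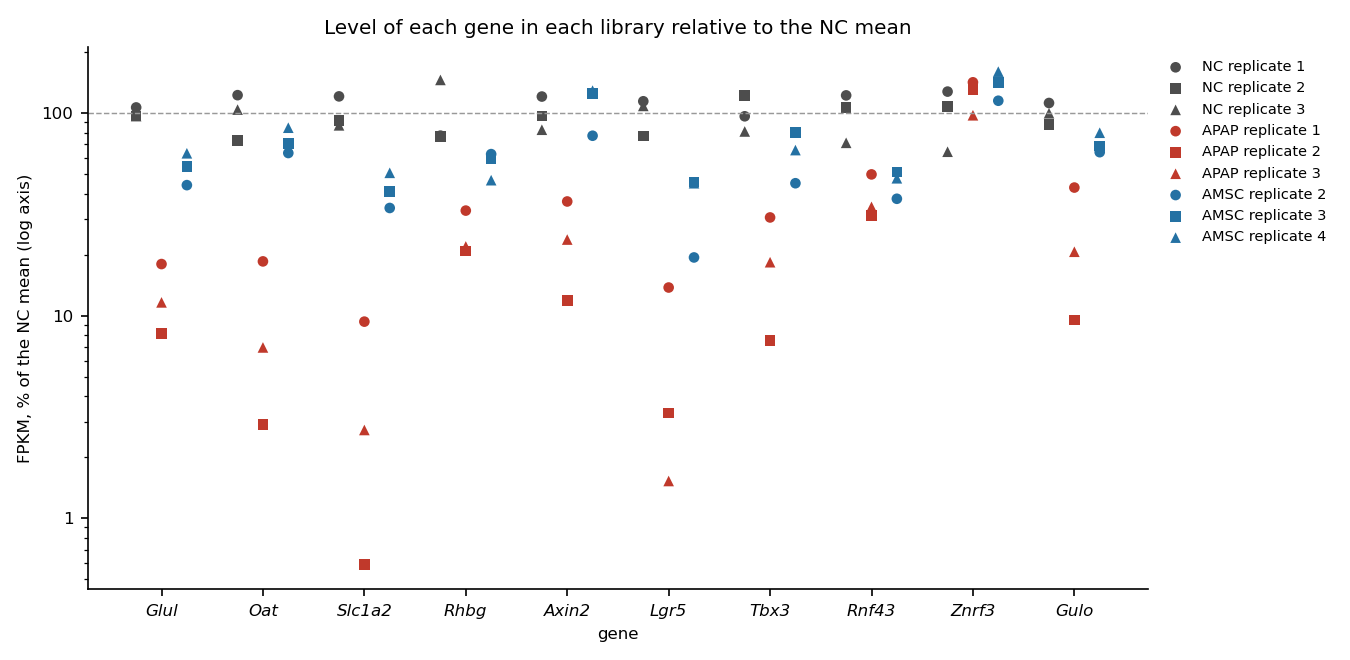
FPKM of each gene (x axis) in each of the 9 libraries as a percent of its NC mean (y axis, log scale), coloured by group with a marker shape per library. The APAP circles, replicate 1, lie above the other APAP markers for 10 of 10 genes, and the Slc1a2 and Lgr5 markers of APAP reach furthest down.

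Likeness of pattern was measured as the root mean square distance of log2(FPKM + 1), centred and scaled over the 9 libraries, where 0 is the same shape. Among the 10 genes the closest pair was Glul and Slc1a2 (0.0937), whose promoters are printed above, and Oat and Gulo were 0.148 apart. The genes closest to Glul after Slc1a2 were Eif2s1 (0.149) and Kat14 (0.183), and those closest to Slc1a2 after Glul were Eif2s1 (0.134) and Narfl (0.184). The distance leaves out the size of the change, which was far smaller in these genes. Eif2s1 had means of 8.75, 7.05 and 8.04 FPKM in NC, APAP and AMSC. Kat14 had 4.58, 2.90 and 3.97, and Narfl had 7.40, 4.94 and 6.03. For Oat they were Aldh3a2 (0.106), Cyp2a5 (0.128) and Gulo, of which Cyp2a5 is a pericentral cytochrome. The closest to Rhbg were Ciao1 (0.187), Pno1 (0.251) and Gm49331 (0.256), and to Axin2 they were Ccnd1 (0.253), Lysmd4 (0.255) and Emc8 (0.269). Lgr5 was closest to 1700001L05Rik (0.184), Ttc7 (0.200) and Armt1 (0.205), and Tbx3 to Tbl2 (0.0933), Rnf144b (0.137) and Zfp146 (0.147). Glul and Slc1a2 also differed from each other in the size of change. The ratio of Glul to Slc1a2 was 21.5, 25.6 and 27.1 in NC, 46.9, 337 and 104 in APAP and 31.6, 32.4 and 30.4 in AMSC. The 3 groups did not overlap in this ratio, NC being lowest and APAP highest. Each of the 3 comparisons had a two-sided exact permutation p = 0.1, the smallest this design allows. Groups without overlap must give that value, so the test adds nothing to the ranges. The pair was chosen from these same data, and the ratio of 337 rests on 10 reads of Slc1a2 in APAP replicate 2.

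Other Wnt feedback and target genes were mixed. Of 14 listed, 5 were tested, and with APAP 1 was higher (Myc) and 2 lower (Ccnd1 and Notum), against 5.09% and 2.8% of all genes. The median log2 fold change of the 5 was -0.53 where the median of all genes tested was -0.0043. Ccnd1, a cyclin of the G1 phase, went from 4.0 ± 1.15 FPKM (SD, n = 3) in NC to 1.02 ± 0.515 in APAP (-1.32, limma adjusted p = 0.00559) and was 3.60 ± 1.67 in AMSC. Notum, a secreted Wnt inactivator, went from 9.41 ± 1.89 to 4.29 ± 2.74 (-1.08, limma adjusted p = 0.0481) and was 7.73 ± 0.867 in AMSC. Myc, a growth regulator with many other inducers, rose from 4.57 ± 2.92 to 42.9 ± 15.2 (3.10, limma adjusted p = 0.00336) and was 25 ± 3.35 in AMSC (2.39 against NC, limma adjusted p = 0.00399). Sp5, a direct β-catenin target, had 33, 51 and 42 reads in the NC libraries, 0 in every APAP library and 8, 19 and 15 in the AMSC libraries. With a floor of 3 reads over the group, it was at least 32.2-fold lower in APAP than in NC and at least 12.5-fold higher in AMSC than in APAP. Nkd1, an antagonist of Dishevelled, had 1.71 ± 0.408, 0.874 ± 0.325 and 0.642 ± 0.137 FPKM in NC, APAP and AMSC and was no DEG (APAP against NC -0.53, limma adjusted p = 0.0634), but voom called it lower in AMSC than in NC (-1.40, adjusted p = 0.00417). By voom, 6.05% of all genes were lower with APAP and 1.13% were higher in AMSC than in APAP. The shares in the other directions were not computed. Of 8 genes of this list in the voom fit, 2 were called higher and 4 lower with APAP, and 2 higher and 1 lower in AMSC than in APAP. Among them was Tnfrsf19, a receptor of the TNF family, at -3.02 (voom adjusted p = 0.00247) and then 2.42 (voom adjusted p = 0.0173), named after its values were seen. None of the 5 was a DEG between AMSC and APAP, with a median of 0.53, where 0.742% of all genes were higher and 1.22% lower. In AMSC against NC 1 was higher, where the share of all genes was 3.92%.

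Of 27 Wnt ligands, receptors and transducers tested among 48, 1 was a DEG with APAP, near the background share of 2.8% lower and 5.09% higher, and the median was 0.09. By voom, 2 of 35 were higher and 4 lower. Of all genes in the voom fit, 6.05% were lower with APAP, and the share that was higher was not computed. The DEG was Wnt5b, a ligand of the β-catenin-independent branch. It fell from 5.84 ± 0.658 to 0.653 ± 0.224 FPKM (-2.05, limma adjusted p = 0.000141) and was 0.668 ± 0.154 in AMSC (-2.04 against NC, limma adjusted p = 2.97e-05). No gene of this list was a DEG between AMSC and APAP, where the background was 0.742% higher and 1.22% lower. Voom called 1 there, the Wnt receptor gene Fzd5 (-1.12, adjusted p = 0.0114), named after its values were seen. No share of all genes was computed for lower voom calls in this comparison. The central vein ligand Wnt2 had 1.01 ± 0.508 FPKM in NC, 1.48 ± 1.05 in APAP and 0.590 ± 0.132 in AMSC. Wnt9b had 0.182 ± 0.0469, 0.0825 ± 0.129 and 0.108 ± 0.0886 FPKM, and Rspo3, the R-spondin of the central vein, had 0.897 ± 0.478, 0.674 ± 0.343 and 0.874 ± 0.0979 FPKM. Wnt2 (0.23 with APAP, limma adjusted p = 0.666) and Rspo3 (-0.41, voom adjusted p = 0.601) did not pass the test, and Wnt9b had too few reads to enter it. The R-spondin receptor Lgr4 (-0.15, limma adjusted p = 0.487) and Ctnnb1, which encodes β-catenin (-0.33, limma adjusted p = 0.0985), did not pass the test with APAP.

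Many other pericentral hepatocyte genes were lower with APAP. Of 29 tested among 30, 14 were lower with APAP and 0 higher, against 2.8% and 5.09% of all genes, with a median of -1.13. The list was drawn up with earlier results of these data known, so these shares are not an independent test of it. In AMSC, 8 were higher than in APAP and 0 lower, against 0.742% and 1.22%, with a median of 0.74. The 8 became 2 when genes averaging 0.1 FPKM or more were tested. Cyp2e1, the main APAP-oxidising cytochrome, had 3408 ± 181 FPKM in NC, 847 ± 635 in APAP and 3619 ± 199 in AMSC (APAP against NC -2.31, limma adjusted p = 0.0147, and AMSC against APAP 2.40, limma adjusted p = 0.0474). Cyp2a5 followed with 519 ± 138, 26.2 ± 27.1 and 299 ± 109 FPKM, and the phosphatase gene Lhpp with 29.0 ± 4.36, 5.35 ± 3.37 and 29.9 ± 4.83, and both were DEGs in these comparisons. Cyp7a1, the rate-limiting enzyme of bile acid synthesis, fell from 62.2 ± 10.9 to 1.13 ± 0.795 FPKM (-4.96, limma adjusted p = 6.47e-05) and was 7.41 ± 6.70 in AMSC, still lower than in NC (-3.18, limma adjusted p = 0.00196). Cyp1a2 had 755 ± 197, 376 ± 201 and 247 ± 27.2 FPKM and was a DEG only between AMSC and NC (-1.58, limma adjusted p = 0.00106). Por, the electron donor of the cytochromes, was higher in AMSC than in APAP (1.03, limma adjusted p = 0.00832) and NC (1.01, limma adjusted p = 0.00202). Against NC, 1 of 29 was higher in AMSC and 2 lower, where 3.92% and 2.09% of all genes were. Of 22 periportal genes, 5 were higher with APAP, 0 lower and 17 not called, with a median of 0.62 beside 0.51 for the hepatocyte markers. The 5 became 2 when genes averaging 0.1 FPKM or more were tested. Among the 5 were Sds, a serine dehydratase (1.46, limma adjusted p = 0.0302), and Pck1 of gluconeogenesis (1.23, limma adjusted p = 0.0188). Between AMSC and APAP, 2 were lower, Cdh1 (-1.49, limma adjusted p = 0.0196) and Hsd17b6 (-1.15, limma adjusted p = 0.0369), and 0 higher, with a median of -0.27, and 2 were higher in AMSC than in NC. The 2 lower calls were lost under that same wider test.

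**Figure D4:**
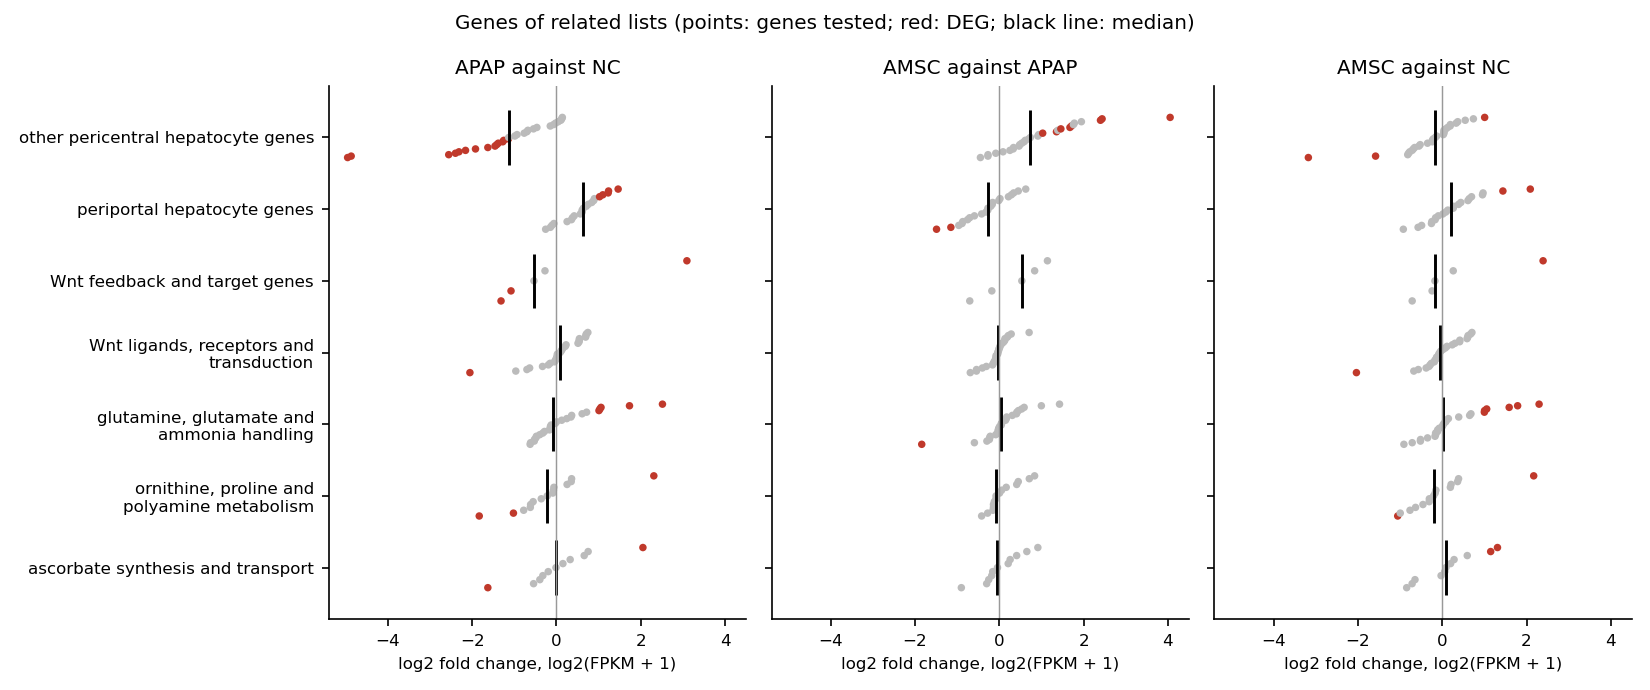
Log2 fold change on log2(FPKM + 1) (x axis) of every gene tested in 7 related lists, for the 3 comparisons, with DEGs in red and the list median as a black line. The other pericentral genes have a median of -1.13 for APAP against NC and 0.74 for AMSC against APAP, while the Wnt ligands, receptors and transducers stay at 0.09 and -0.04.

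The other genes of glutamine, glutamate and ammonia handling held 5 higher and 0 lower DEGs with APAP, of 26 tested among 37, with a median of -0.08. At the background share of 2.8% lower, 0 of 26 is not a result about the list. The share of all genes that was higher was 5.09%. The DEGs included Slc38a2, a glutamine importer, which rose from 10.6 ± 3.39 to 63.7 ± 5.49 FPKM (2.52, limma adjusted p = 0.000246), and Aqp8, a water channel that also carries ammonia (1.73, limma adjusted p = 0.000593). Aqp8 was the only DEG of this list between AMSC and APAP (-1.84, limma adjusted p = 0.0338), where voom also called 2 genes higher, Gpt2 (1.0, adjusted p = 0.0179) and Slc1a4 (1.55, adjusted p = 0.0334), both named after their values were seen. Of all genes in the voom fit, 1.13% were higher there. The call of Aqp8 was lost when genes averaging 0.1 FPKM or more were tested. Compared with NC, 6 were higher in AMSC, against 3.92% of all genes. Gls2, the liver glutaminase of periportal cells, had 125 ± 17.2, 191 ± 21.3 and 126 ± 6.22 FPKM in NC, APAP and AMSC (0.61 with APAP, limma adjusted p = 0.022, under the fold threshold). Slc38a3, a glutamine transporter, had 246 ± 33.6, 268 ± 13 and 252 ± 9.40 FPKM. Cps1, the first enzyme of the urea cycle, had 850 ± 122, 777 ± 173 and 765 ± 140 FPKM, and no comparison of either passed the test.

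Around Oat, the list of ornithine, proline and polyamine metabolism had 1 higher and 2 lower DEGs of 15 tested among 21 with APAP, and a median of -0.22. Of all genes tested, 5.09% were higher and 2.8% lower with APAP. Srm, spermidine synthase, fell from 49.3 ± 7.73 to 13.2 ± 2.41 FPKM (-1.83, limma adjusted p = 0.000478), Prodh, proline dehydrogenase, was lower (-1.02, limma adjusted p = 0.00134), and Sat1, which acetylates polyamines for breakdown, rose (2.31, limma adjusted p = 0.00846). None of the 15 was a DEG between AMSC and APAP, where 0.742% of all genes were higher and 1.22% lower. In AMSC against NC, 1 was higher and 1 lower, where the shares were 3.92% and 2.09%. Odc1, the first enzyme of polyamine synthesis, had 49.6 ± 7.37, 32.2 ± 5.27 and 28.7 ± 3.30 FPKM, and Arg1, the source of ornithine in the urea cycle, had 757 ± 95.6, 724 ± 77.8 and 987 ± 66.5. Around Gulo, 11 ascorbate genes were tested among 12, of which 1 was higher and 1 lower with APAP, 0 changed between AMSC and APAP and 2 were higher in AMSC than in NC. Beside the shares of all genes given above, 1 call among 11 is not a result about the list. Rgn, the gluconolactonase that acts before Gulo, went with it from 415 ± 53.5 to 158 ± 106 FPKM (-1.63, limma adjusted p = 0.0395) and was 254 ± 46.6 in AMSC. Rgn is also on the list of other pericentral genes, where the same call is counted. The call was lost when genes averaging 0.1 FPKM or more were tested. The glucose and dehydroascorbate transporter gene Slc2a1 rose with APAP (2.05, limma adjusted p = 0.00608).

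Markers of other cell types were measured in the same libraries. Of all genes tested, 5.09% were higher and 2.8% lower with APAP, and 0.742% and 1.22% in AMSC against APAP. For AMSC against NC the shares were 3.92% and 2.09%. The 8 neutrophil markers summed to 0.355 to 1.82 FPKM in NC, 7.58 to 34.5 in APAP and 4.31 to 5.96 in AMSC, and 3, 2 and 1 of them were at 0 in all libraries of the group. Of 3 tested, 3 were higher with APAP. The 8 macrophage markers summed to 54.8 to 110 FPKM in NC, 81.9 to 201 in APAP and 45.5 to 73.6 in AMSC, with 2 of 8 higher in APAP. For 8 cholangiocyte markers the sums were 22.1 to 45.4, 60.5 to 100 and 30.4 to 53.1 FPKM, with 2 of 5 higher in APAP, including Sox9 (3.50, limma adjusted p = 8.04e-05). The 14 central vein and sinusoidal endothelial markers summed to 22.7 to 48.5 FPKM in NC, 33.3 to 81.5 in APAP and 25.3 to 28 in AMSC, with 1 of 9 higher in APAP (Thbd, a receptor for thrombin, at 2.67, limma adjusted p = 0.000132). The 15 stellate and stromal markers summed to 37.2 to 64.9, 47.7 to 104 and 45.1 to 63.2 FPKM, with 1 of 11 higher in APAP. Beside the shares of all genes, 1 of 9 or 1 of 11 is not a result about a list. Of these lists, Sox9, Thbd and Cd68 were lower in AMSC than in APAP, and 0 genes were higher. In AMSC against NC, 2 of 3 neutrophil genes and 1 of 9 endothelial genes were higher, and none of the cholangiocyte, macrophage and stromal genes tested was a DEG. Of 11 hepatocyte markers 0 were DEGs with APAP or between AMSC and APAP, and 3 were higher in AMSC than in NC. Their part in the levels of the 10 genes was not tested.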

How the data were processed

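RNA-seq of 9 mouse livers was analysed (NC, APAP and AMSC groups, 3 biological replicates each, grouped by the sample labels). The authors deposited FPKM values per gene, with gene lengths. The study names Novogene for sequencing. The submitters' processing notes name GRCm38 and mm10, and the aligner and counter are not given in the sources used here. The start and end of 98.3% of 54409 shared identifiers, and of all 10 genes, matched GENCODE vM21 on GRCm38. FPKM times length was a whole multiple of a per-library step, within 0.1 reads, for 100.0% of values, and rounding recovered reads, 13418921 to 16210930 per library.

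The main test was limma 3.58.1 (lmFit and eBayes with trend, R 4.3.3) on log2(FPKM + 1), limited to genes averaging 1 FPKM or more in the 9 libraries. Each fit held the groups compared, p-values were adjusted by Benjamini-Hochberg over all genes tested, and the study's DEG thresholds were used (adjusted p 0.05 or less, log2 fold change 1 or more, up or down). The voom fit used recovered reads (10 or more on average) with the authors' FPKM denominators. The scripts were tested on simulated data. Tables and figures were made in Python 3.11.15 with matplotlib 3.10.9, numpy 2.4.6 and pandas 2.3.3.

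The 10 genes and 13 lists were chosen with earlier results of these data known. Named from the lists were at most 4 DEGs per comparison, the largest first, and a fixed set of 16 genes. For likeness, the 3 nearest genes were named. The main and voom fits did not pair libraries. The number in the sample descriptions entered only as a replicate block, 1 of the alternatives. Deviations of same-numbered NC and APAP libraries correlated at 0.213, 0.160 and 0.378 over genes, and pairs with unlike numbers were not compared. The title of NC replicate 3 bears another date and the number 1, which goes against pairing by that number. For APAP against NC, the fit with the replicate block changed no call among the 10 genes. For AMSC against APAP, where it uses only replicates 2 and 3 of each group, Tbx3 and Gulo became DEGs with it. No batch field was given beyond these dates. Alternatives in pseudocount, filter, scaling, test, block and libraries are given at the end.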

Additional observations from a re-analysis of the deposited data

How the results depend on the processing

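No result among the 10 genes changed direction where it was called. Each comparison had 132 values of single genes under alternatives, of which 123 kept their side of the threshold for APAP against NC, 116 for AMSC against APAP and 124 for AMSC against NC. Rhbg, Axin2 and Lgr5 had no main test and were counted as not called there, so their values in these counts have no main result to keep. For APAP against NC, 5 of 7 genes were DEGs, 9 of 10 with voom, and 5 to 6 with single libraries left out. Gulo missed the threshold when all genes above 0 were tested (limma adjusted p = 0.0837). For AMSC against APAP, the count of 3 became 0 when all genes above 0 were tested (limma adjusted p = 0.109 for Glul, 0.164 for Oat and 0.10 for Slc1a2). It became 5 with a replicate block, which uses only replicates 2 and 3 of each group there. It became 6 with voom and 2 to 5 with single libraries left out, the highest without APAP replicate 1. Gulo joined them when all 9 libraries shared a fit (limma adjusted p = 0.0338). Oat also missed the threshold when genes averaging 0.1 FPKM or more were tested (limma adjusted p = 0.0673). For AMSC against NC, the count of 1 became 2 with a pseudocount of 0.1 (Rnf43, -1.07), 2 with quantile normalization, 4 with no minimum fold change, 3 with voom, 2 with scaling to library totals (Glul, -1.09) and 0 to 2 with single libraries left out. The cause of these moves was not tested.

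The calls by voom ranged from 8 to 9, from 3 to 6 and from 2 to 4 for the 3 comparisons with single libraries left out, and those of AMSC against APAP were 3 without APAP replicate 3, AMSC replicate 3 or AMSC replicate 4. These voom alternatives and the scaling to library totals were chosen after seeing the data. With that scaling the median of all genes tested was -0.22 for APAP against NC and -0.15 for AMSC against NC, compared with -0.0043 and 0.016 in the main test, and changes there are relative to these medians.

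The replicate block rests on 3 shared description numbers for NC and APAP, where it changed no call. For the other comparisons 2 numbers are shared (2 and 3). The correlations were -0.104 and -0.293 for AMSC and APAP and -0.199 and -0.309 for AMSC and NC. Without pairs of unlike numbers beside them, these values cannot show whether the samples are paired. A library whose number the other group lacks does not enter the contrast of the block fit. AMSC against APAP thus rested there on replicates 2 and 3 of each group, without APAP replicate 1 and AMSC replicate 4. APAP replicate 1 was the highest APAP library for 10 of 10 genes. On these libraries Tbx3 (1.05, limma adjusted p = 0.0202) and Gulo (2.19, limma adjusted p = 0.000126) joined the DEGs. AMSC against NC likewise rested on replicates 2 and 3, and its count stayed at 1. Under the lower filter of 0.1 FPKM, DEGs of the other pericentral list between AMSC and APAP fell to 2 and of the periportal list to 2 with APAP and 0 between AMSC and APAP. The counts became 0 for glutamine handling between AMSC and APAP, 1 for ascorbate and 1 for cholangiocyte genes with APAP, and 1 with APAP and 0 between AMSC and APAP for macrophage genes. Depth limits Rhbg, Axin2 and Lgr5, which had 1 to 20 reads per APAP library. An exact permutation test of 3 against 3 libraries cannot go below p = 0.1, and no group was large enough for an outlier test.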
